A study of Mus musculus with 16 samples.

Results

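The transcripts described here are 10 genes that mark hepatic stellate cells or accompany their activation, measured in the liver of conventional mice that had received vehicle, lean microbiota or HFD-microbiota. They were taken by name: every probe whose gene name in the scanner files was Reln, Des, Hgf, Pdgfrb, Dcn, Ecm1, Acta2, Timp1, Tgfb1 or Lum was collected, which gave 24 of the 56605 probes and 10 of the 37074 gene names on the array. All 10 genes had at least 1 probe above background on enough arrays to be tested, among 20403 genes tested in all. Reln, Des, Hgf, Pdgfrb, Dcn and Ecm1 (6 genes) were treated as markers of quiescent stellate cells or of stellate cells in general, and Acta2, Timp1, Tgfb1 and Lum (4 genes) as activated or fibrogenic markers.

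The arrays came from 16 male C57BL/6 mice, wild type as far as the labels go, which were 6 weeks old at the start, ate normal chow (NC) for 4 weeks and are labelled as 10 weeks old. No mouse had been given antibiotics. The 6 Conv + PBS mice (mice 1 to 6) were gavaged with reduced PBS according to the methods of the study, although their sample labels describe them as controls without a transplant. The 5 Conv + LM mice (mice 13 to 17) received caecal content of lean, NC-fed donors, and the 5 Conv + OM(HFD) mice (mice 25, 26, 28, 29 and 30) caecal content of donors made obese by a high-fat diet. These groups are written PBS, LM and OM(HFD) below. For each transplant the caecal content of several donors was pooled, and recipients were housed in groups, so mice of the same group shared the inoculum and may have shared a cage. The livers were taken after a fast, whole tissue was extracted, and 200 ng of total RNA was labelled per mouse. The comparisons ask whether either microbiota left a trace on stellate cell markers in otherwise untreated livers.

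Stellate cells lie between the hepatocytes and the sinusoidal endothelium. In a healthy liver they are quiescent, store vitamin A as retinyl esters and express genes such as Lrat, Reln and Des. On injury they turn into contractile myofibroblasts that express α-smooth muscle actin, secrete collagens and matrix proteoglycans and hold back matrix breakdown through TIMP-1, with TGF-β1 and PDGF as the best known driving signals. They are a small share of the liver, and in RNA of whole liver a fall in the number of cells of a type and a fall in RNA per cell cannot be told apart.

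On this array each transcript is read by DNA probes of 60 bases, and what a probe can see depends on where it lies. The probes below are those of the members whose probe lies in protein-coding sequence, and they are shown because the results for Dcn and for the main activation markers rest on them alone or almost alone. Positions are those of the array design on mm9, and the capitals mark a stop codon, where the probe reaches it. Only the coding bases of a probe are printed.
Dcn: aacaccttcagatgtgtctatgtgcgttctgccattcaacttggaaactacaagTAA
Des: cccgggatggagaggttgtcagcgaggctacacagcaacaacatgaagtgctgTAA
Acta2: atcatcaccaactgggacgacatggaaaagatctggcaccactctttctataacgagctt
Timp1: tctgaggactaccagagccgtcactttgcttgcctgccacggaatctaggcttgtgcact
Tgfb1: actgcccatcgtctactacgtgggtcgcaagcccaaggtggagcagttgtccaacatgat

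The Dcn probe (chr10:96980233-96980292, plus strand) reaches past the stop codon of decorin, and 57 of its bases are coding, stop codon included. The Des probe (chr1:75363404-75363629, plus strand) covers 226 bases of the genome with 60 bases, so it crosses a splice junction, and its first 56 bases run to the stop codon. The Acta2 probe (chr19:34322995-34326249, minus strand) likewise crosses a junction, with its ends 3255 bases apart in the genome. It lies in a stretch that the actins share almost fully at the protein level, so signal from related actins in it is uncertain. The Timp1 probe (chrX:20451675-20451733, plus strand) and the Tgfb1 probe (chr7:26489877-26489936, plus strand, within the part of the gene that encodes the mature cytokine) show no such gap. The probes that stood for Reln, Hgf, Pdgfrb, Ecm1 and Lum are not printed.

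Between 49.7% and 58.3% of probes were well above background on an array, no probe was saturated, and the 75th percentile of the signal lay between 153 and 220. The lowest correlation between any 2 arrays over all genes tested was 0.976. The arrays were on 2 slides: slide 1 carried 3 PBS, 2 LM and 3 OM(HFD) mice, and slide 2 carried 3, 3 and 2. Mice 1 and 25 stood lowest on the first principal component of all genes (-41.0 and -43.7), and each had the lowest Reln of its group. The summed level of the neutrophil markers, in units of the 75th percentile of the array, was 32.1 in mouse 1 and 29.8 in mouse 25 and between 1.53 and 2.69 in the other 14 mice, and that of the Kupffer cell markers was 210 in mouse 1, 95.2 in mouse 25 and between 30.8 and 57.2 in the others. Member counts are therefore also given without these 2 mice. As a check of the label, 23 of the 25 other quiescent stellate genes on the array, Lrat and Cygb among them, were well above background on all 16 arrays, as were 9 of the 10 members, Des being above background on 9 arrays. All 7 hepatocyte markers were above background on every array.

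Over all genes, the groups differed little. In OM(HFD) vs. PBS mice, 303 genes (1.49%) were higher and 360 (1.76%) lower at an unadjusted limma p under 0.05, the threshold of the study's methods. In LM vs. PBS mice 366 (1.79%) were higher and 426 (2.09%) lower, and in OM(HFD) vs. LM mice 281 (1.38%) were higher and 264 (1.29%) lower. After adjustment over all genes, limma called 0 genes (0%) in each comparison, and the 2-group test without limma's shared spread that was run as an alternative also called 0. No member had a smaller adjusted p than 0.998054. Everything said of a member below as passing a threshold therefore refers to unadjusted values.

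Among the 10 members, 1 passed that threshold in 1 of the 3 comparisons. Dcn was lower in OM(HFD) than in PBS mice, with a change in signal of -16.5%. The 3 activation markers Acta2, Timp1 and Tgfb1 passed it in no comparison, nor did Lum. Of the 10 members, 3 were higher and 7 lower in OM(HFD) vs. PBS mice (median log2 difference -0.12, against -0.002 over all genes), 5 were higher and 5 lower in LM vs. PBS mice (median 0.03, against -0.01), and 3 were higher and 7 lower in OM(HFD) vs. LM mice (median -0.17, against 0.003). The comparisons share groups, so these counts are not separate observations. Without mice 1 and 25, 3 members (Dcn, Reln and Hgf) passed in OM(HFD) vs. PBS mice, 0 in LM vs. PBS mice by limma and 1 (Hgf) in OM(HFD) vs. LM mice, where 3.14%, 4.73% and 3.67% of all genes passed in either direction, against 3.25%, 3.88% and 2.67% with all mice. In none of the 3 comparisons did the ranges of a member's groups lie fully apart, while over all genes this was so for 0.23%, 0.279% and 0.436% of genes in the same order.

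**Figure D1:**
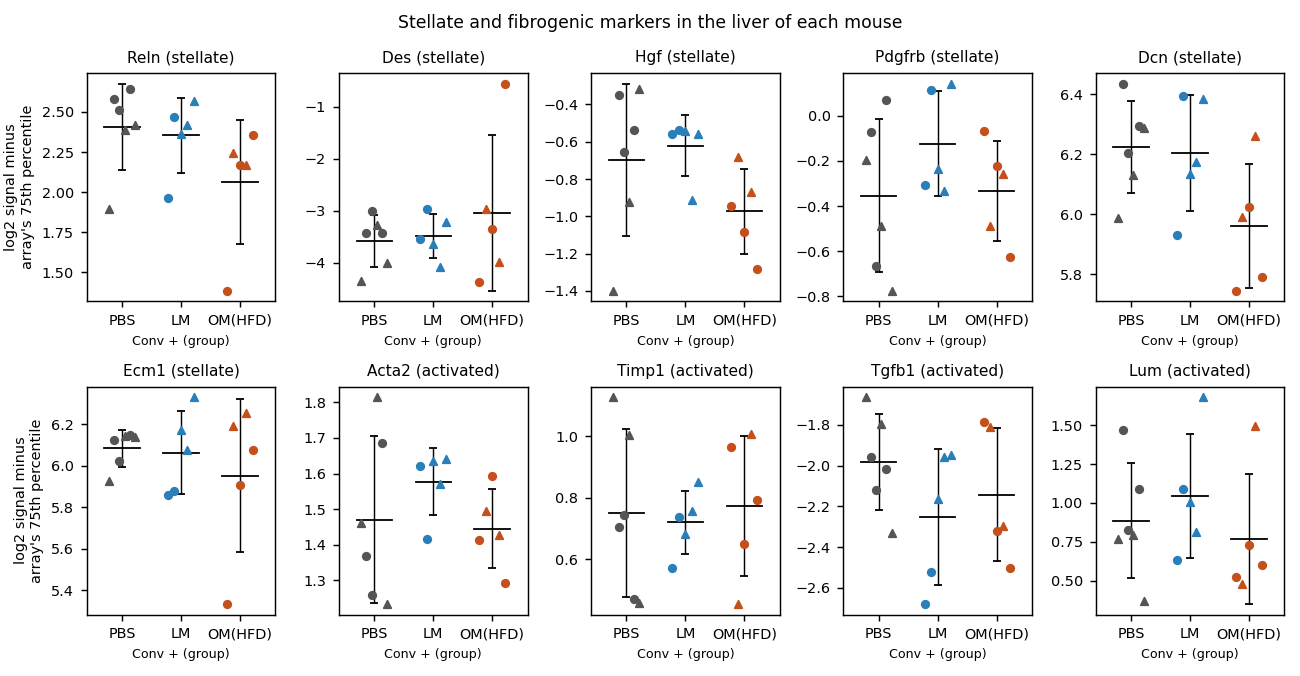
Each panel is 1 marker, with the log2 signal minus the 75th percentile of the array on the y axis and the 3 groups on the x axis; each point is a mouse (circle, slide 1; triangle, slide 2), the line is the group mean and the bar is 1 SD (n = 6, 5 and 5). The y axes differ between panels, and the groups overlap for every marker, with mouse 30 at -0.56 for Des and mouse 25 at 1.39 for Reln standing away from their groups.

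Reln encodes reelin, a large secreted glycoprotein that stellate cells make in the liver. All values that follow are log2 of the signal after the 75th percentile of the array was set to 0. In PBS mice Reln lay between 1.90 and 2.64 with a median of 2.47. In LM mice it was 1.96, 2.47, 2.36, 2.42 and 2.57 (mice 13 to 17), and in OM(HFD) mice it was 1.39, 2.24, 2.17, 2.17 and 2.36 (mice 25, 26, 28, 29 and 30). Each of the 5 OM(HFD) values was under the medians of both other groups, yet the ranges overlapped, because mice 1 and 13 were low as well.

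Reln was 0.34 lower in OM(HFD) than in PBS mice (SE 0.17, limma p = 0.0674; exact two-sided permutation p = 0.104), which missed the threshold. The difference between LM and PBS mice was -0.05 (SE 0.17). Without mouse 1 the OM(HFD) vs. PBS difference was -0.45, which passed the threshold in limma, and without mouse 25 it was -0.17, which did not, so each of these mice, which also carried the high neutrophil and Kupffer cell levels given above, moved it. It also passed without mouse 30 (-0.42). What part those cells had in it was not tested. Reln has 6 probes on the array, of which 4 were above background on enough arrays, and the other 3 gave -0.14, -0.25 and, for the dimmest, 0.16 for the same comparison.

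Des encodes desmin, the muscle intermediate filament by which stellate cells of rodents are recognised in sections. Its probe was dim and was well above background in 3 mice of each group. In PBS mice Des lay between -4.35 and -3.01 with a median of -3.44. It was -3.55, -2.98, -3.64, -4.08 and -3.22 in LM mice, and -4.38, -2.97, -3.35, -3.98 and -0.56 in OM(HFD) mice. Mouse 30 thus lay well above every other mouse, and the others covered the same range in all groups. The OM(HFD) vs. PBS difference of 0.54 carried an SE of 0.51 (exact permutation p = 0.494), and without mouse 30 it was -0.084. Against LM mice it was 0.45, and -0.18 without mouse 30.

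Hgf encodes hepatocyte growth factor, which stellate cells release and hepatocytes sense through Met. In PBS mice Hgf lay between -1.40 and -0.32 with a median of -0.60. LM mice were close together, at -0.56, -0.53, -0.54, -0.91 and -0.56, and OM(HFD) mice stood at -0.95, -0.68, -1.08, -0.87 and -1.29. Every OM(HFD) mouse lay below the medians of both other groups, and the lowest value of all was that of mouse 1 in the PBS group.

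The OM(HFD) vs. LM difference of Hgf was -0.35 (SE 0.18), which missed the threshold in limma (p = 0.0695) and passed it in the exact permutation test (p = 0.0238, where the smallest p that 5 against 5 mice allow is 0.00794). Against PBS mice the difference was -0.28 (SE 0.17, limma p = 0.131; exact permutation p = 0.212), and without mouse 1 it was -0.42, which passed in limma. The difference from LM mice passed in limma without mouse 1 (-0.35), mouse 16 (-0.43) or mouse 26 (-0.43). The probes of Hgf disagreed. The 2 other probes above background on all arrays gave -0.04 and -0.02 for OM(HFD) vs. PBS mice, and -0.13 and -0.003 for OM(HFD) vs. LM mice. The dimmest, above background on 6 arrays, gave -0.28 and 0.11 in these comparisons, and -0.39 for LM vs. PBS mice (SE 0.18), which passed the threshold in a limma fit over all probes, where the other 3 probes gave between -0.02 and 0.09.

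Pdgfrb encodes the β receptor of platelet-derived growth factor, through which activated stellate cells are driven to divide. It lay between -0.78 and 0.07 in PBS mice, between -0.33 and 0.14 in LM mice and between -0.62 and -0.07 in OM(HFD) mice. The 3 ranges overlapped. The largest of its 3 differences was 0.23 (SE 0.16), between LM and PBS mice, and OM(HFD) and PBS mice differed by 0.02 with a 95% interval from -0.32 to 0.37.

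Dcn encodes decorin, a small leucine-rich proteoglycan of the matrix that binds collagen fibrils and TGF-β. It lay between 5.99 and 6.43 in PBS mice, with a median of 6.25. In LM mice it was 5.93, 6.39, 6.13, 6.17 and 6.38, and in OM(HFD) mice 5.74, 5.99, 6.02, 6.26 and 5.79. Of the 5 OM(HFD) mice 4 lay below the PBS median, mice 25 and 30 below every mouse of the other groups, and mouse 29 was within the upper part of the PBS range.

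Dcn was 0.26 lower in OM(HFD) than in PBS mice (SE 0.11; 95% interval -0.50 to -0.02; limma p = 0.0362, adjusted p = 0.999982; exact two-sided permutation p = 0.0455). It was 1 member of 10 called lower, where 1.76% of all genes were called. Against LM mice the difference was -0.24 (SE 0.12, limma p = 0.0594; exact permutation p = 0.0873), and between LM and PBS mice it was -0.02 (SE 0.11). The call was lost when any 1 of 6 mice was left out: the difference became -0.22 without mouse 2, -0.25 without mouse 5, -0.25 without mouse 6, -0.21 without mouse 25, -0.27 without mouse 26 and -0.22 without mouse 30, with limma p-values from 0.0501 to 0.101. The difference from LM mice passed without mouse 13 (-0.31) or mouse 29 (-0.32), and with normexp background correction (-0.30) or the authors' log2 values (-0.29). Dcn has a single probe on the array, and in a fit over all 56605 probes without a filter its limma p for OM(HFD) vs. PBS mice was 0.0516, which missed the threshold.

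Ecm1 encodes extracellular matrix protein 1, a secreted protein that keeps TGF-β in its latent form. It lay between 5.92 and 6.15 in PBS mice and was 5.86, 5.88, 6.17, 6.08 and 6.33 in LM mice. In OM(HFD) mice it was 5.33, 6.19, 5.91, 6.26 and 6.07, mouse 25 being the lowest of all 16 mice. The difference between OM(HFD) and PBS mice was -0.13 (SE 0.14; exact permutation p = 0.535), and that between LM and PBS mice -0.02. A second, dimmer probe of Ecm1, above background on all arrays, gave -0.36 and -0.30 in these comparisons (SE 0.38 in both).

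The activated markers came next. Acta2, the α-smooth muscle actin of myofibroblasts and of vessel walls, lay between 1.23 and 1.82 in PBS mice, with a median of 1.41. It was 1.62, 1.42, 1.63, 1.57 and 1.64 in LM mice and 1.41, 1.49, 1.59, 1.43 and 1.29 in OM(HFD) mice. Both groups of transplanted mice fell within the range of the PBS mice. The OM(HFD) vs. PBS difference was -0.03 (SE 0.11), with a 95% interval from -0.25 to 0.20, and its second probe on all arrays gave 0.09. Between OM(HFD) and LM mice it was -0.13 (SE 0.11; exact permutation p = 0.0873).

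Timp1 encodes an inhibitor of matrix metalloproteinases that rises early in fibrogenesis. It lay between 0.46 and 1.13 in PBS mice, between 0.57 and 0.85 in LM mice and between 0.45 and 1.01 in OM(HFD) mice. The 3 medians were 0.72, 0.74 and 0.79. The differences were 0.02 (SE 0.13) for OM(HFD) vs. PBS, -0.03 (SE 0.13) for LM vs. PBS and 0.05 (SE 0.14) for OM(HFD) vs. LM mice.

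Tgfb1 encodes TGF-β1, the main profibrogenic cytokine, which macrophages and platelets also supply. In PBS mice it lay between -2.33 and -1.66 with a median of -1.99. It was -2.68, -2.52, -2.16, -1.96 and -1.95 in LM mice and -1.79, -1.81, -2.32, -2.30 and -2.50 in OM(HFD) mice. Mice of both transplanted groups reached below the lowest PBS mouse, while the others lay within its range. The difference from PBS mice was -0.27 (SE 0.17, limma p = 0.135; exact permutation p = 0.162) in LM mice and -0.16 (SE 0.17; exact permutation p = 0.348) in OM(HFD) mice.

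Lum encodes lumican, a second proteoglycan of the same family as decorin. It lay between 0.37 and 1.47 in PBS mice. It was 0.63, 1.09, 1.0, 0.82 and 1.68 in LM mice and 0.53, 0.48, 0.73, 1.49 and 0.60 in OM(HFD) mice. Mouse 29 was high and the other 4 OM(HFD) mice were in the lower part of the range. The OM(HFD) vs. LM difference was -0.28 (SE 0.23), and without mouse 29 it was -0.46, which passed the threshold in limma.

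**Figure D2:**
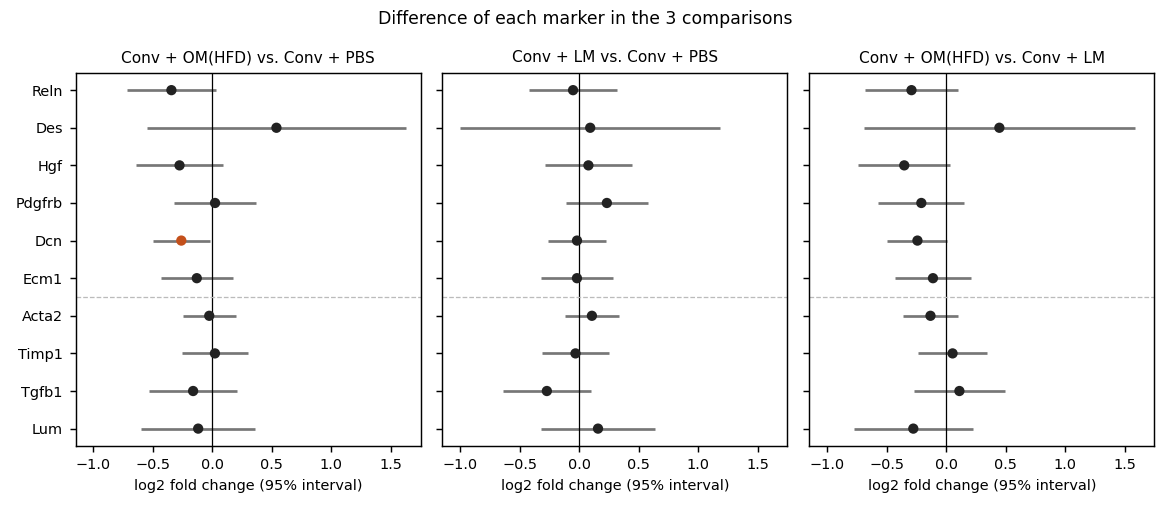
The log2 difference of each marker (x axis) is drawn with its 95% interval from limma in the 3 comparisons; markers above the dashed line are quiescent or general stellate markers and those below it activated or fibrogenic ones, and a coloured point marks an unadjusted p under 0.05. The interval of Dcn in OM(HFD) vs. PBS mice, from -0.50 to -0.02, is the only one of the 30 that leaves out 0.

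By role, the 6 quiescent or general markers had a median difference of -0.20 in OM(HFD) vs. PBS mice (2 higher and 4 lower) and of -0.23 in OM(HFD) vs. LM mice (1 higher and 5 lower). The 4 activated markers had medians of -0.07 (1 higher and 3 lower) and -0.04 (2 higher and 2 lower). In LM vs. PBS mice the medians were 0.03 (3 higher and 3 lower) and 0.04 (2 higher and 2 lower). The SE of a member's difference between OM(HFD) and PBS mice ran from 0.11 for Acta2 and Dcn to 0.51 for Des, which sets the size of change that could be seen.

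HFD-microbiota and vehicle were also compared within each slide. On slide 1, 8 of the 10 members were lower in OM(HFD) than in PBS mice (median -0.25), and on slide 2, 5 were lower and 5 higher (median 0.05), against medians of 0.004 and -0.005 over all genes. Dcn differed by -0.46 on slide 1 and by -0.01 on slide 2. Reln differed by -0.61 and -0.03, Hgf by -0.59 and 0.10, and Lum by -0.51 and 0.34. On slide 1 the 3 OM(HFD) mice lay below the 3 PBS mice for these 4 genes. On slide 2 the 2 OM(HFD) mice lay within the range of the 3 PBS mice for Reln, Hgf and Dcn. In LM vs. PBS mice 6 of the 10 members were lower on slide 1 (median -0.09) and 8 higher on slide 2 (median 0.17). In OM(HFD) vs. LM mice the members leaned the same way on both slides, with 7 of 10 lower on slide 1 (median -0.15) and 8 of 10 lower on slide 2 (median -0.11). With the slide as a block in the fit, the difference of Dcn was -0.26 and still passed the threshold, and that of Reln was -0.34 and did not. Whether the effect differs between slides was not tested, and each slide held only 2 or 3 mice of a group.

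**Figure D3:**
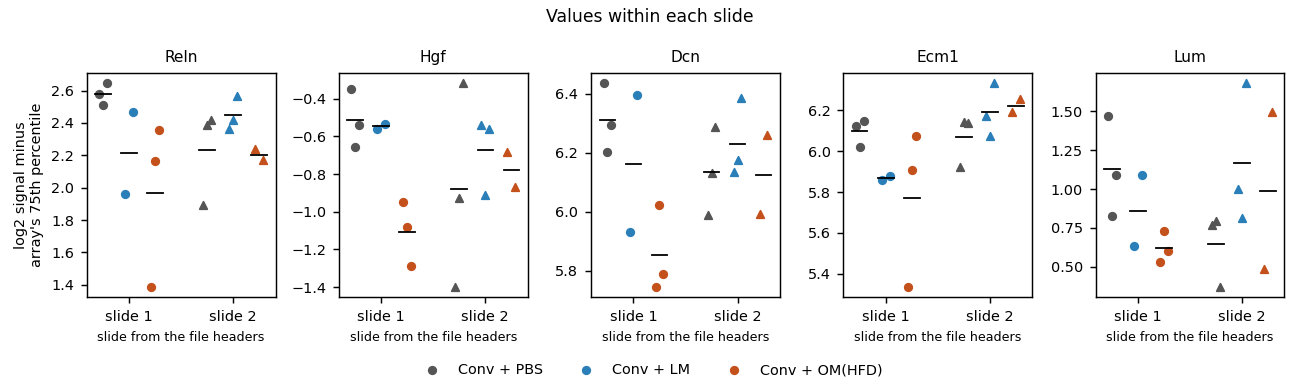
The log2 signal minus the 75th percentile of the array (y axis) of 5 markers is drawn for each mouse within slide 1 (circles, left) and slide 2 (triangles, right), with a line at the mean of each group. OM(HFD) mice lie below PBS mice for Reln, Hgf, Dcn and Lum on slide 1 and among them on slide 2 for Reln, Hgf and Dcn.

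Some members varied together among mice of the same group. Over the 16 mice, with the group means removed, Reln went with Ecm1 (Pearson r 0.79, Spearman rho 0.58) and with Dcn (0.67 and 0.59), and Dcn with Lum (0.72 and 0.69). Pdgfrb went with Lum (0.62 and 0.65). Hgf ran against Timp1 (-0.67 and -0.66). Without the 2 mice farthest from the middle in the first gene of the pair, r was 0.53 for Reln and Ecm1, 0.52 for Reln and Dcn, 0.58 for Dcn and Lum and -0.55 for Hgf and Timp1. The strongest r of Acta2 with another member was 0.38, with Tgfb1. These are descriptions over 45 pairs, and the values of a mouse share its array, its scaling and its slide.

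**Figure D4:**
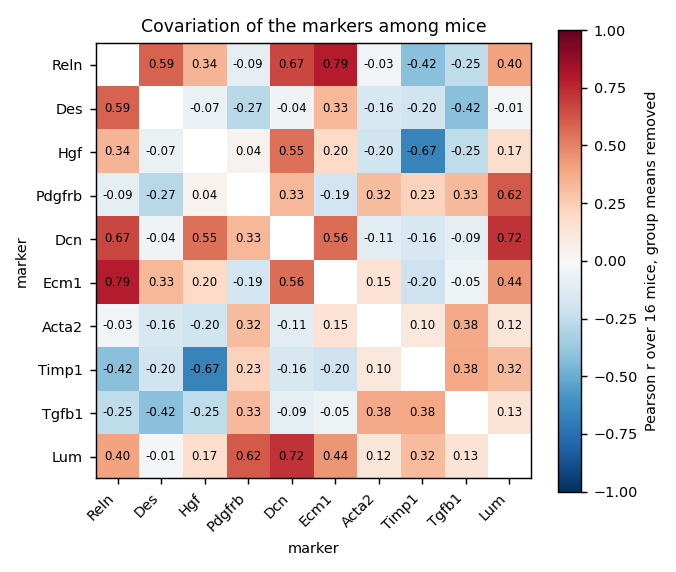
Each cell gives Pearson's r between 2 markers over 16 mice after the group means were removed, with red for positive and blue for negative values. The matrix proteoglycans Dcn and Lum and the markers Reln and Ecm1 form the strongest pairs (0.72 and 0.79), and Hgf against Timp1 is the most negative (-0.67).

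Over the whole table of 20402 other genes, the 3 genes nearest to Reln in the same measure were Slc43a3 (r 0.93), Akap2 (0.91) and Gm19522 (0.90). Those nearest to Dcn were Dhx33, AK046569 and AK163149 (all 0.88). Those nearest to Timp1 were a probe of the array design for a noncoding RNA without a gene symbol (0.88), Polr3c (0.86) and Vmn1r192 (0.86). Those nearest to Acta2 were AA619741, Gmppb and a transcript without a gene symbol (all 0.79), and those nearest to Tgfb1 were Fam217b (0.79), Krtap16-1 (0.78) and Vps41 (0.77). None of the 3 genes nearest to these 5 members was a member, and the other members were not searched.

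The neighbouring genes of the same biology were read from lists drawn up from general knowledge of these cells. Earlier results of these data were known when the lists were chosen, so their counts describe these genes and are not independent evidence. Of 23 other quiescent stellate genes, 19 were lower and 4 higher in OM(HFD) than in PBS mice (median -0.16), and 6 (Lrat, Colec10, Bmp5, Gdf2, Colec11 and Nes) were lower at an unadjusted limma p under 0.05, with 0 higher, against 1.76% of all genes called lower. Of these 6, 5 were also under 0.05 in the exact permutation test, and Nes was not. The count was 3 without mouse 5, 4 without mouse 2, 25 or 30, and between 5 and 7 without any other mouse, and it was 4 without mice 1 and 25 together. The summed level of the list was 85.5 to 110.1 in PBS, 84.1 to 129.6 in LM and 84.4 to 118.1 in OM(HFD) mice, so the groups overlapped in it and the highest OM(HFD) mouse, mouse 25, lay above every PBS mouse. The sum is of unlogged signal, so the brightest genes of the list weigh most in it. For each of the 6 genes called above, mouse 25 had the lowest value of all mice. In OM(HFD) vs. LM mice 21 of the 23 were lower and 2 higher (median -0.20). Limma called 5 lower (Lrat, Bmp5, Colec10, Colec11 and Adamts13), against 1.29% of all genes called lower. Of these 5, 2, Lrat and Adamts13, were under 0.05 in the exact permutation test. That test was run only on members and list genes, so its counts have no share over all genes beside them. In LM vs. PBS mice 13 were lower and 10 higher (median -0.02), with 0 called by limma and 1, Colec10 (-0.20), at an exact permutation p under 0.05.

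Lrat, the enzyme that makes the retinyl esters stored in stellate cells, lay between -0.75 and -0.13 in PBS mice. It was -0.94, -0.76, -0.60, -0.69 and -0.41 in LM mice and -1.43, -1.09, -0.91, -0.85 and -1.05 in OM(HFD) mice. All OM(HFD) mice lay below all PBS mice, and these groups lay fully apart for 0.23% of all genes tested. The difference was -0.63 (SE 0.14, limma p = 0.000352, adjusted p = 0.999982; exact permutation p = 0.00649), and it was as large within slide 1 (-0.63) as within slide 2 (-0.60). Lrat was also lower in LM than in PBS mice (-0.25, SE 0.14, limma p = 0.0933; exact permutation p = 0.119). Against LM mice the OM(HFD) difference was -0.39 (SE 0.15, limma p = 0.0177; exact permutation p = 0.0238), with overlapping ranges.

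Colec10, a collectin of stellate cells, lay between 2.54 and 2.96 in PBS mice. It was 1.87, 2.45, 2.42, 2.45 and 2.07 in OM(HFD) mice, again without overlap, as was so for 0.23% of all genes. Its difference was -0.47 (SE 0.12, limma p = 0.00109; exact permutation p = 0.00216, the smallest that 5 against 6 mice allow), with -0.70 on slide 1 and -0.17 on slide 2. Bmp5 differed by -0.46 (SE 0.15), with -0.80 on slide 1 and -0.02 on slide 2. Gdf2, which encodes BMP9, differed by -0.29 (SE 0.12), Colec11 by -0.27 (SE 0.12) and Nes by -0.35 (SE 0.16), with slide 2 values between -0.05 and 0.04. Lrat thus had like values on both slides, while the other 5 genes had their larger difference on slide 1, as Dcn did. Of the whole list, 21 of the 23 genes were lower on slide 1 (median -0.36) and 11 of 23 on slide 2 (median 0.04). In OM(HFD) vs. LM mice 20 of the 23 were lower on slide 1 (median -0.17) and 14 on slide 2 (median -0.12).

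Of 26 other activated stellate and matrix genes, 17 were higher and 9 lower in OM(HFD) than in PBS mice (median 0.07), and only Fn1, which encodes fibronectin and is also made in quantity by hepatocytes, passed the threshold (-0.15, SE 0.07, limma p = 0.0387; exact permutation p = 0.0238). The direction of this list turned between the slides, with 10 higher and 16 lower on slide 1 (median -0.06) and 21 higher and 5 lower on slide 2 (median 0.16). In LM vs. PBS mice 19 were higher and 7 lower (median 0.10), and in OM(HFD) vs. LM mice 11 were higher and 15 lower (median -0.05). Fn1 was lower in LM than in PBS mice too (-0.21, SE 0.07, limma p = 0.00606; exact permutation p = 0.00866). Col1a1, which encodes the α1 chain of type I collagen and was named here after its values were seen, ranged from -2.44 to 0.25 in PBS mice, from -1.40 to 1.36 in LM mice and from -1.90 to 1.70 in OM(HFD) mice. Its OM(HFD) vs. PBS difference of 0.64 had an SE of 0.67, so the spread among mice of a group was larger than the differences between groups.

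**Figure D5:**
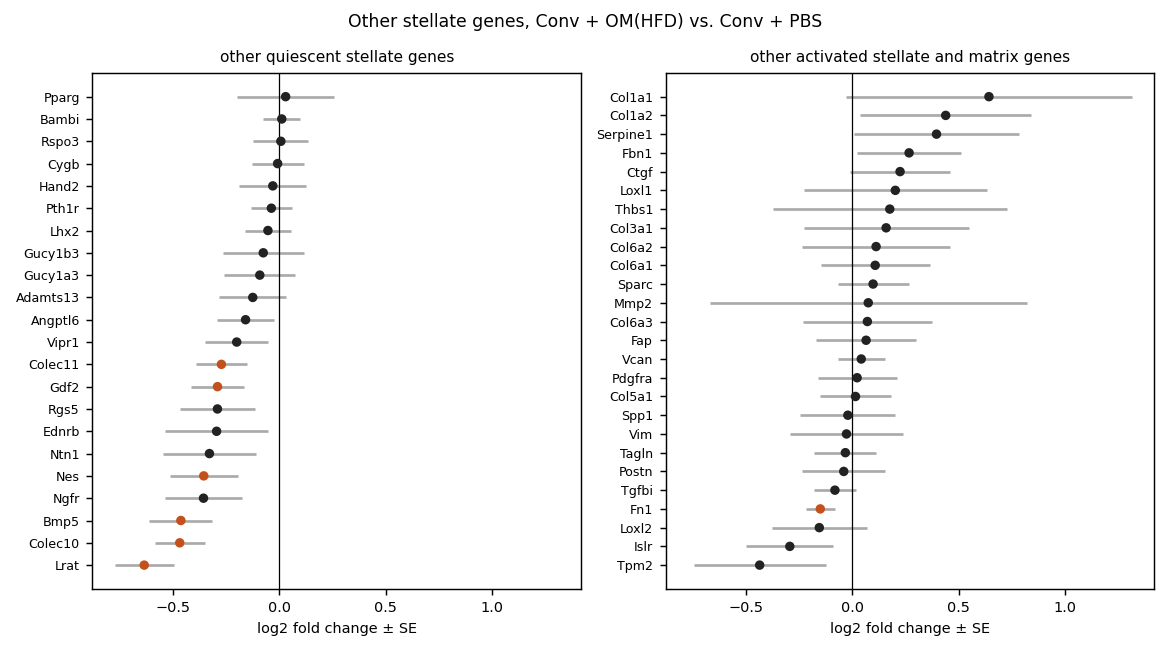
The log2 difference between OM(HFD) and PBS mice (x axis, with bars of 1 SE from limma) is drawn for 22 of the 23 other quiescent stellate genes (left) and the 26 other activated stellate and matrix genes (right), ordered by size, with coloured points at an unadjusted limma p under 0.05. On the left 19 of the 22 drawn lie below 0, from Lrat at -0.63 up; on the right 17 of 26 lie above 0, although 16 of the 26 were lower on slide 1, and 19 of the 26 were higher in LM than in PBS mice.

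Around TGF-β, 0 of 22 ligands, receptors and mediators passed the limma threshold in any comparison, with 17 lower and 5 higher in LM vs. PBS mice and 16 lower and 6 higher in OM(HFD) vs. PBS mice, where 1, Lrrc32 (-0.27, SE 0.13), was under 0.05 in the exact permutation test. Of 11 TIMPs and metalloproteinases, 8 were lower and 3 higher in the same comparison, and Reck, a membrane-bound inhibitor of metalloproteinases, passed (-0.62, SE 0.23, limma p = 0.0177; exact permutation p = 0.0368, with -1.0 on slide 1 and -0.12 on slide 2). Mmp15 was lower in OM(HFD) than in LM mice (-0.34, SE 0.15, limma p = 0.0368; exact permutation p = 0.0238). Mmp8, a collagenase of neutrophils, differed by -1.22 between LM and PBS mice (SE 0.57, limma p = 0.0477; exact permutation p = 0.0281), but it was not well above background in 3 of the 5 LM mice (mice 13, 14 and 15, with mouse 14 at -5.95), so the size of this difference is uncertain. The highest PBS value of Mmp8 was that of mouse 1, which carried the high neutrophil level. Mmp3 and Mmp10 were above background on no array. Of 11 genes of the HGF and PDGF axes, 4 of the reelin pathway and 7 other small leucine-rich proteoglycans, 0 passed by limma in any of the 3 comparisons, and 1 gene of the reelin pathway, Fyn (-0.33, SE 0.18), was under 0.05 by the exact permutation test in LM vs. PBS mice.

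Markers of other cells were read the same way, since several members are not exclusive to stellate cells. All 10 sinusoidal endothelial markers were above background on all arrays, and their summed level (in units of the 75th percentile of the array) was 64.3 to 74.1 in PBS, 51.8 to 69.9 in LM and 44.7 to 72.7 in OM(HFD) mice. Of these markers 8 of 10 were lower in OM(HFD) than in PBS mice, and Clec4g passed the threshold (-0.48, SE 0.18, limma p = 0.0159; exact permutation p = 0.0130). In LM mice 8 of the 10 were lower than in PBS mice as well (median -0.15, against -0.22 in OM(HFD) mice), with 0 past the limma threshold and 3 under 0.05 in the exact permutation test, among them Clec4g (-0.36, SE 0.18, limma p = 0.0592; exact permutation p = 0.0152). Of the 7 cholangiocyte markers 5 were lower. Tspan8 (-0.93, SE 0.34; exact permutation p = 0.0433) and Cftr (-0.76, SE 0.34; exact permutation p = 0.0671) passed in limma, and Tspan8 also passed against LM mice (-1.18, SE 0.35, limma p = 0.00397; exact permutation p = 0.0397). Both genes were above background on only 6 arrays, Tspan8 on 1 and Cftr on 2 of the 5 OM(HFD) arrays, so the size of these differences is uncertain. The summed level of the cholangiocyte markers was 6.41 to 12.2, 7.70 to 11.9 and 5.57 to 13.3 in the 3 groups.

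For smooth muscle, which shares Acta2, 5 of 5 markers tested were lower in OM(HFD) than in PBS mice (median -0.04) with none past the threshold, and the summed level was 6.98 to 11.2, 8.29 to 10.12 and 7.82 to 10.19. For portal fibroblasts, which share Dcn and Lum, 7 of 8 were lower (median -0.14) with none past it, and the summed level was 3.51 to 5.47, 3.57 to 4.82 and 3.11 to 4.55. Of the 4 mesothelial markers tested all 4 were lower (median -0.40), with none past the threshold and none above background on all arrays, and their summed level was 0.0895 to 2.69, 0.433 to 2.58 and 0.141 to 1.76. Of 9 Kupffer cell markers, 8 were lower in OM(HFD) than in PBS mice (median -0.14) and all 9 in LM than in PBS mice (median -0.44), and all 9 were higher in OM(HFD) than in LM mice (median 0.32), with none past the threshold in any comparison. Of the 7 hepatocyte markers, 6 were higher in OM(HFD) and 4 in LM than in PBS mice with none past the threshold. In LM vs. PBS mice all 5 smooth muscle markers were higher (median 0.13), while 5 of 8 portal fibroblast, 2 of 4 mesothelial and 2 of 7 cholangiocyte markers were lower, none past the threshold. In OM(HFD) vs. LM mice all 5 smooth muscle markers were lower (median -0.18, with 1, Smtn, under 0.05 in the exact permutation test), as were all 4 mesothelial (median -0.57), 5 of 7 cholangiocyte (median -0.31), 8 of 10 sinusoidal endothelial (median -0.06) and 5 of 8 portal fibroblast markers (median -0.02). What part these cells had in the differences of Dcn, Lrat and the other stellate genes was not tested. All 6 neutrophil markers tested were lower in LM than in PBS mice (median -0.76), with 1, Mmp8, past the threshold, and all 6 were higher in OM(HFD) than in LM mice (median 1.04), with none past it. Their summed level was 32.1 in mouse 1 (PBS), 29.8 in mouse 25 (OM(HFD)) and 1.53 to 2.69 in every other mouse. For the Kupffer cell markers it was 210 and 95.2 in these 2 mice and 30.8 to 57.2 in the others. The medians of both lists were not recomputed without these 2 mice. Adipose, pancreas, skeletal muscle and neutrophil markers had no gene past the threshold in OM(HFD) vs. PBS mice, and Prss1, Cpa1, Try4 and Ckm were above background on no array.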

How the data were processed

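Liver RNA of 16 mice was read on 1-colour Agilent microarrays, 1 per mouse. The authors deposited the intensity of every spot from Agilent Feature Extraction 10.10.1.1 (per the labels), background-subtracted and detrended within the array and not normalized between arrays, and a table of log2 values, which proved to be quantile-normalized log2 median intensity (smallest r with a recomputation 0.999999). From the deposited intensity, control spots and 1785 spot values flagged as outliers were left out, spots of a probe averaged, and the array's 75th percentile subtracted on the log2 scale, so a fold change is a difference of log2 values. Probes well above background on at least 5 arrays were kept (30662), and the brightest on average stood for its gene. Groups were compared in 1 fit of limma 3.58.1 in R 4.3.3, with Benjamini-Hochberg adjustment over 20403 genes, and each named gene by an exact two-sided permutation test over mice (smallest p 0.00216 for 5 against 6 and 0.00794 for 5 against 5). Arrays have no read depth, so their number limits the precision. Sample groups are those of the labels, no mouse number occurs in more than 1 group, and the p-values measure the spread between mice that may share cages and inocula.

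The members and gene lists were chosen with earlier results of these data known. The genes named are the 10 members in all comparisons, the 3 genes most correlated with each of Reln, Dcn, Acta2, Timp1 and Tgfb1, and up to 5 genes of each other list at an unadjusted p under 0.05; Nes, Col1a1, Lrrc32, Fyn and other names beyond these were added after their values were seen. Lists come from general knowledge and cover quiescent and activated stellate genes, TGF-β, TIMPs and metalloproteinases, HGF and PDGF, reelin, proteoglycans, and markers of hepatocytes, Kupffer cells, endothelium, cholangiocytes, smooth muscle, portal fibroblasts, mesothelium, neutrophils, adipose tissue, pancreas and skeletal muscle. Alternatives were normexp (offset 50), quantile normalization, the authors' log2 values, no filter, a filter that asks for signal on every array, array weights, the slide as a block, fits without the third group, averaging the probes of a gene, testing each probe separately, an unpaired Student test (which the study's methods name in general, not for the arrays) and leaving out each mouse. Leaving out mice 1 and 25 together was added after the data were seen. The code was tested on simulated data. The values of 1 list gene are not reported here. Gene names and mm9 positions are those of the array design. Plots used matplotlib 3.10.9 in Python 3.11.15.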

Additional observations from a re-analysis of the deposited data

Results flagged for a closer look

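Among 72 sets of values (each member, and each list gene at an unadjusted limma p under 0.05 in any comparison, in each group), 5 held a mouse whose distance to its nearest neighbour was large for the range of its group. Chance flags about 1 in 20 such sets. Reln was low in mouse 1 of the Conv + PBS group (1.90, the next being 2.39) and in mouse 25 of the Conv + OM(HFD) group (1.39, the next being 2.17). Hgf was low in mouse 16 of the Conv + LM group (-0.91, the next being -0.56). Lum was high in mouse 29 of the Conv + OM(HFD) group (1.49, the next being 0.73). Of the list genes, Gdf2 was low in mouse 25 (0.54, the next being 0.97).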

How the results depend on the processing

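Each member's difference was recomputed in the 3 comparisons. In the 297 recomputations other than those that left out 1 mouse, 274 kept direction and side of the threshold, 8 newly passed it and 15 changed sign. In the 480 that left out 1 mouse, 436 kept both, 6 lost the threshold, 9 newly passed it and 29 changed sign. In none of the first kind did a call get lost. The members called in Conv + OM(HFD) vs. Conv + PBS mice numbered 2 with normexp and with array weights (Dcn, and Reln at -0.35 and -0.32) and 3 without mice 1 and 25 (Dcn, Reln at -0.28 and Hgf at -0.42), where 3.14%, 4.21% and 3.14% of all genes were called, against 3.25%, and 0 to 3 with 1 mouse left out. In Conv + OM(HFD) vs. Conv + LM mice 1 was called with normexp and the authors' log2 values (Dcn), and with only the mice compared, the unpaired Student test and without mice 1 and 25 (Hgf), where 2.71% to 3.67% of all genes were called, against 2.67%, and 0 to 2 with 1 mouse left out. In Conv + LM vs. Conv + PBS mice 1 (Hgf) was called when every probe was tested on its own. Over all genes, 862 were called in Conv + OM(HFD) vs. Conv + LM mice with the slide as a block against 545 of 20403. With every probe on its own 824 of 30662 probes were called, where more tests were made. The cause of the other shifts was not tested. Des had no value when only probes above background on all arrays were kept.

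Des, whose differences of Conv + OM(HFD) mice from Conv + PBS and Conv + LM mice were the largest in size among the members, changed sign in both without mouse 30 (-0.084 and -0.18). In Conv + OM(HFD) vs. Conv + PBS mice, Pdgfrb became -0.0047 (normexp), -0.020 (the authors' values) and -0.012 (without mice 1 and 25), and Acta2 0.027 (array weights) and 0.031 (mean of all probes). In Conv + LM vs. Conv + PBS mice, Dcn became 0.023 and Ecm1 0.0097 with the authors' values. With array weights Ecm1 became 0.0076, Des -0.147 and Hgf -0.029, with the mean of all probes Hgf became -0.060, and without mice 1 and 25 Des became -0.062, Hgf -0.064 and Timp1 0.043. Ecm1 became 0.043 in Conv + OM(HFD) vs. Conv + LM mice without mice 1 and 25.

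With 1 mouse left out, 3 to 7 other quiescent stellate genes were called lower in Conv + OM(HFD) vs. Conv + PBS mice, and the difference ran from -0.084 to 0.872 for Des, -0.062 to 0.108 for Pdgfrb, -0.207 to 0.024 for Ecm1, -0.074 to 0.043 for Acta2 and -0.037 to 0.101 for Timp1. The Conv + LM vs. Conv + PBS difference ran from -0.155 to 0.046 for Reln, -0.062 to 0.238 for Des, -0.064 to 0.153 for Hgf, -0.067 to 0.049 for Dcn, -0.086 to 0.032 for Ecm1, -0.090 to 0.043 for Timp1 and -0.0016 to 0.274 for Lum. The Conv + OM(HFD) vs. Conv + LM difference ran from -0.176 to 0.781 for Des, -0.187 to 0.043 for Ecm1 and -0.0046 to 0.133 for Timp1. Des was dim, so its values are the least certain.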

Other observations

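When the deviation from the Conv + PBS mean was averaged over the 6 quiescent or general markers in each mouse, mouse 25 was lowest (-0.50), followed by mouse 1 (-0.37), and mouse 30 highest (0.28). The value of mouse 30 rests on its Des signal of -0.56, from a dim probe, against a Conv + PBS mean of -3.59. Its Reln, Hgf, Pdgfrb, Dcn and Ecm1 were each below the Conv + PBS mean, so its average without Des would be negative. For the 4 activated markers the same average ran from -0.35 in mouse 6 to 0.27 in mouse 17, and Conv + OM(HFD) mice lay between -0.24 and 0.13.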
